A study of Mus musculus with 8 samples.

Results

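The genes described here are 31 genes of protein folding, quality control and stress signalling in the endoplasmic reticulum (ER). They were taken from a list of gene symbols that was drawn up with earlier results of these data known, and no threshold on a measured value entered the choice. Each of the 31 symbols matched exactly 1 of the 42649 genes in the count table. They comprise 9 luminal chaperones and their partners, 2 lectin chaperones, 4 protein disulfide isomerases, 5 stress sensors and signalling genes, 7 genes of ER-associated degradation and 4 genes of translocation and glycosylation.

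Proteins that enter the secretory pathway pass through a translocation channel in the ER membrane, fold there with the help of chaperones and disulfide isomerases, and are sent to the cytosol for degradation when they fail to fold. When unfolded proteins accumulate, the sensors IRE1 alpha (encoded by Ern1), ATF6 and PERK (encoded by Eif2ak3) start the unfolded-protein response, in which ATF6, spliced XBP1 and ATF4 raise the transcription of chaperone and degradation genes. In macrophages the same branches are known to act in secretion, lipid handling and inflammatory signalling.

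The study asked how diet affects macrophages in liver metastases of colon cancer. C57BL/6 mice received a control diet (CD, 10% of energy as fat) or a high-fat diet (HFD, 60% of energy as fat) over 6 weeks, and liver metastases were then seeded by injecting the spleen with MC38, a line of mouse colon carcinoma cells. On day 19 after injection, cells positive for CD45, CD11b and F4/80 were sorted from the metastases, and polyA RNA was amplified with an oligo(dT)-primed template-switching protocol and sequenced, giving 4 CD and 4 HFD libraries. The labels give no sex or age, and no genetic change is recorded in either group. They list 4 mice and 4 libraries for each diet without stating that each library is 1 mouse, so p-values measure the spread between these libraries.

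Total counts ran from 37180157 to 55717378 per library. The genes of the sort, Ptprc (CD45), Itgam (CD11b) and Adgre1 (F4/80), were detected in all 8 libraries. CD replicates 3 and 4 stood apart: 15 neutrophil markers summed to 108026 and 109709 CPM there (counts scaled to a common library size), against 1898 and 1560 CPM in CD replicates 1 and 2 and 460 to 7402 CPM in the HFD libraries. HFD replicate 1 also stood apart: its 100 most abundant genes held 32.5% of its counts, against 52.4% to 70.5% in the other 7 libraries. Its 8 macrophage and sort markers summed to 6060 CPM, against 22463 to 66238 CPM in the other 7. Among these markers Lyz2 was at 3595 CPM in it, against 19113 to 54127 CPM, whereas Adgre1 was at 617 CPM, against 93.4 to 682 CPM. Genes with at least 1 count numbered 34495 and 33449 in CD replicates 3 and 4 and 21571 to 24556 elsewhere, and the mitochondrial share of counts was 9.15% and 10.7% in these 2 libraries and 2.58% to 7.68% in the other 6. Counts of genes are given below with and without these 3 libraries, as are the fold changes that moved most when they were left out.

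Many of the 31 genes are textbook targets of the ER stress response element (ERSE), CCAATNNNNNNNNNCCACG, which is bound by NF-Y and ATF6, so the sequences around the matches are shown first. Windows from 250 bases before to 50 bases after the gene start were taken from RefSeq on GRCm38.p6 and were found for 25 of the 31 genes. Both strands were searched. An exact ERSE was present in 9 of the 25 genes (36%) and in 39 of 32851 windows of all genes (0.119%). The sites below are printed on the strand that reads CCAAT first, with the fixed letters of the element in capitals.
Hspa5, chr2:34772020-34772048, plus strand: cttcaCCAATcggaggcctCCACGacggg
Hsp90b1, chr10:86705633-86705661, minus strand: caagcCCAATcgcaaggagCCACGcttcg
Hsp90b1, chr10:86705528-86705556, plus strand: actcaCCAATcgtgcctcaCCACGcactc
Calr, chr8:84847070-84847098, plus strand: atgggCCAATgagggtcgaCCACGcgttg
Canx, chr11:50325795-50325823, minus strand: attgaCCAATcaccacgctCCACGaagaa
Dnajc3, chr14:118937822-118937850, plus strand: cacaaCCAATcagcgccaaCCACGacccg
Creld2, chr15:88819515-88819543, minus strand: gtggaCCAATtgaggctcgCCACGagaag
Pdia6, chr12:17266486-17266514, plus strand: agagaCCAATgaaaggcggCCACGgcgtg
Syvn1, chr19:6046527-6046555, plus strand: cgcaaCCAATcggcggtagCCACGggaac
Derl3, chr10:75893237-75893265, minus strand: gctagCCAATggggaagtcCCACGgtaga

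The related element ERSE-II, in which an ATTGG and a CCACG are separated by a single base, was present in Dnajb11 and Herpud1, which is 8.0% of the 25 genes, and in 0.037% of all windows. Its sites are printed with both parts in capitals.
Dnajb11, chr16:22857847-22857867, plus strand: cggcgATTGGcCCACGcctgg
Herpud1, chr8:94386372-94386392, plus strand: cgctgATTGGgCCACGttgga

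The XBP1 element TGACGTGG was in none of the 25 windows and in 0.676% of all windows. With at most 1 of the 10 fixed letters of the ERSE changed, 14 of the 25 genes (56.0%) and 1.504% of all windows had a match, which counts the exact matches as well.

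The 250 bases before the RefSeq start are shown for Hspa5, Sdf2l1 and Dnajb9, which are described first below. Each is printed on the strand of its gene, with every CCAAT and CCACG in capitals on either strand (ATTGG and CGTGG on the opposite one).
Hspa5, chr2:34771840-34772089, plus strand: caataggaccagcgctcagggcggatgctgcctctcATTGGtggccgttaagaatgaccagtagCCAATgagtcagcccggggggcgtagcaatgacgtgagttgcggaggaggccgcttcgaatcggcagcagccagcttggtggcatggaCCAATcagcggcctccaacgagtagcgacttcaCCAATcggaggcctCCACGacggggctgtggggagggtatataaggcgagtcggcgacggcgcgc
Sdf2l1, chr16:17132384-17132633, minus strand: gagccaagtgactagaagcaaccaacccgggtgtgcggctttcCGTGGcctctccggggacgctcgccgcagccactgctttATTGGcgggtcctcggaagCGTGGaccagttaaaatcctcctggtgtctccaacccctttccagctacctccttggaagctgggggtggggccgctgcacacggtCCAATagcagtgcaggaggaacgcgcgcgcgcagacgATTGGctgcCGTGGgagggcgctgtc
Dnajb9, chr12:44210069-44210318, minus strand: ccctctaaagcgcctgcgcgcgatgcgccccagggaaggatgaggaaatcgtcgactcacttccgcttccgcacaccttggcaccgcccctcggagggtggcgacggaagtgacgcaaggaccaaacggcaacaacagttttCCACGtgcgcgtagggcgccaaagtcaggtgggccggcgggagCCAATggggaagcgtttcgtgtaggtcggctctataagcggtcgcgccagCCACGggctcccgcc
These 250 bases held 4 CCAAT and 1 CCACG in Hspa5, 3 of each in Sdf2l1, and 1 CCAAT and 2 CCACG in Dnajb9. Of these 3 genes, Hspa5 alone had a CCAAT and a CCACG spaced as in the ERSE.

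Between the diets, most of the 31 genes had lower levels in the HFD than in the CD libraries on counts scaled by trimmed mean of M-values (TMM). Scaled by library size only, 12 of the 31 had a log2 fold change below 0. None passed the threshold of an adjusted p under 0.05 in edgeR's quasi-likelihood test on the TMM-scaled counts. All 31 genes passed the filter on low counts and were tested among 17367 genes. Over all genes tested, 0% were called higher and 0.00576% were called lower, the latter being 1 gene. The smallest adjusted p among the 31 genes was 0.264, for Sdf2l1.

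Read without a call, the TMM-scaled fold changes leaned to lower levels in HFD. The median log2 fold change of the 31 genes (HFD minus CD) was -0.26, against 0.01 over all genes tested, and 22 of 31 genes were below 0, against 49.2% of all genes. An unadjusted p under 0.05 was found for 4 of 31 genes in the lower direction (12.9%, against 7.56% of all genes tested) and for none in the higher direction (against 5.31% of all genes). In 5 genes, Sdf2l1, Dnajb9, Calr, Manf and Hspa5, all 4 HFD libraries lay below all 4 CD libraries (16.1%, against 4.8% of all genes), and in none did all HFD libraries lie above (against 3.57%). DESeq2 on the same genes called Sdf2l1 lower (adjusted p = 0.0324), which is 1 of 31 genes (3.23%, against 2.87% of the 17259 genes with an adjusted p), and none higher (against 0.829%).

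**Figure D1:**
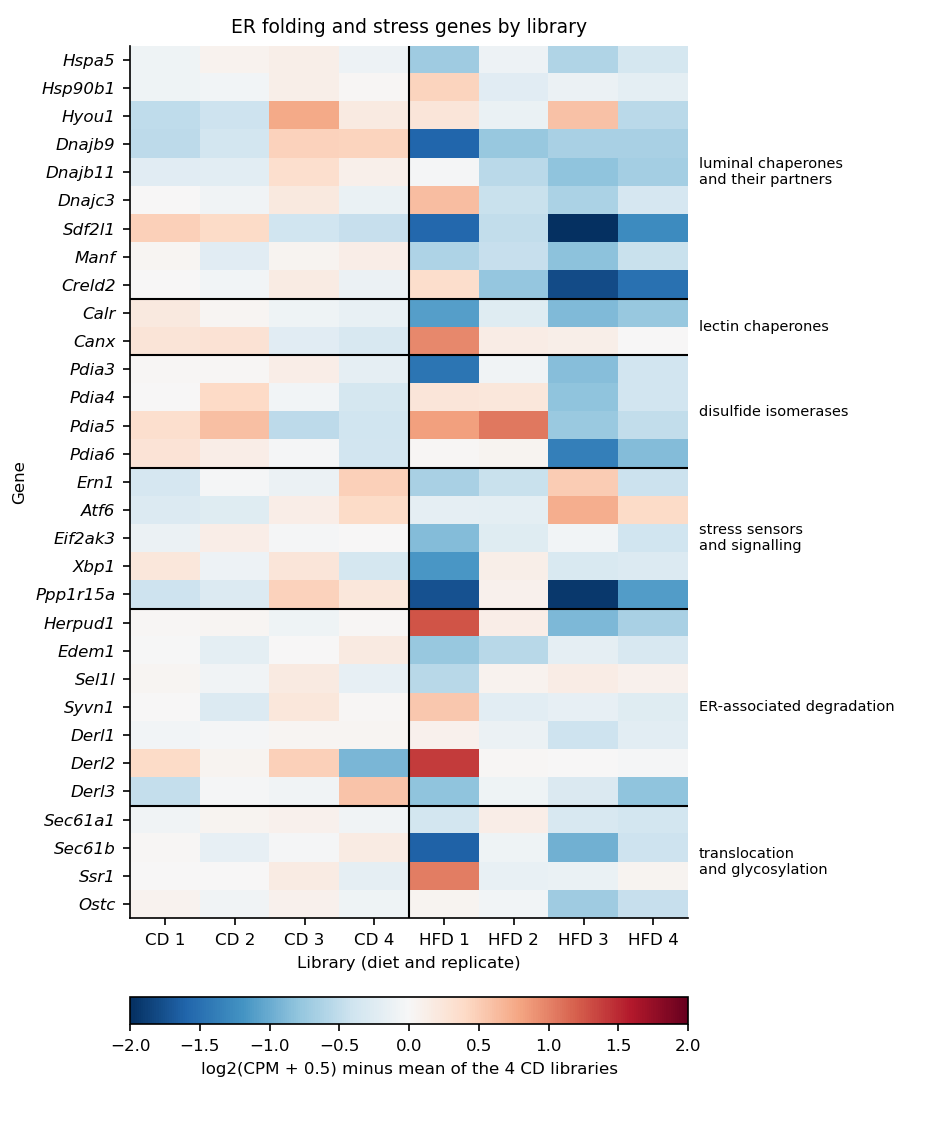
Level of the 31 genes in each library, as log2(CPM + 0.5) minus the mean of the 4 CD libraries, with genes in rows grouped by role and libraries in columns. Blue cells are below the CD mean and red cells above it. Sdf2l1, Dnajb9, Manf, Calr and Hspa5 are below every CD library in all 4 HFD libraries, and HFD replicate 1 holds both the deepest blue and the deepest red cells of many rows.

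Hspa5 encodes BiP, the main luminal HSP70 chaperone, which also holds the stress sensors inactive. It stood at 1047, 1166, 1199.8 and 1036 CPM in CD replicates 1 to 4 and at 681, 1029, 733 and 868 CPM in HFD replicates 1 to 4. The highest HFD library lay just under the lowest CD library. Means were 1112 ± 82.7 CPM in CD and 828 ± 156 CPM in HFD (SD, n = 4 each), and the log2 fold change of -0.43 ± 0.34 (SE) had an adjusted p of 0.604 in edgeR.

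Sdf2l1 encodes a partner of the DNAJB11 co-chaperone that keeps misfolding proteins from aggregating. Its level was 119, 110, 64.2 and 61.2 CPM in the CD libraries and 28.3, 60.1, 20.8 and 35.2 CPM in the HFD libraries. CD replicates 3 and 4 were low among the CD libraries, and HFD replicate 2 came within about 1 CPM of them. The means of 88.6 ± 30.1 and 36.1 ± 17.1 CPM gave a log2 fold change of -1.29 ± 0.39. Without CD replicates 3 and 4 and HFD replicate 1 it was -1.56 (adjusted p = 0.536 in edgeR), and over leaving out each single library it ran from -1.64 to -1.08.

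Dnajb9 encodes ERdj4, a BiP co-chaperone that returns IRE1 alpha to its inactive state. CD libraries had 26.3, 29.5, 52.6 and 52.0 CPM and HFD libraries had 12.3, 22.3, 24.1 and 24.3 CPM. The 2 high CD libraries were those with the neutrophil markers, and HFD replicate 1 was the lowest of all 8. The log2 fold change of -0.95 ± 0.33 (means 40.1 ± 14.1 and 20.8 ± 5.68 CPM, adjusted p = 0.306 in edgeR) shrank to -0.24 without CD replicates 3 and 4 and HFD replicate 1, with the diets still apart.

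Manf encodes a secreted survival factor of the ER that binds BiP. It was at 222, 185, 225 and 237 CPM in the CD libraries and at 141, 158, 122 and 158 CPM in the HFD libraries. All HFD libraries lay below all CD libraries, and the log2 fold change was -0.59 ± 0.26 (means 217 ± 22.4 and 145 ± 17.1 CPM, adjusted p = 0.381 in edgeR). Its annotated span overlaps Dcaf1 and Rbm15b on both strands, and the library protocol does not mark strand, so a part of its counts may be shared.

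Dnajb11 encodes ERdj3, the co-chaperone that delivers unfolded proteins to BiP. Values were 46.1, 46.2, 68.1 and 57.7 CPM in CD and 53.2, 36.8, 30.7 and 33.4 CPM in HFD. HFD replicate 1 alone reached into the CD range, and the log2 fold change was -0.50 ± 0.27 (adjusted p = 0.451 in edgeR, and -0.26 without CD replicates 3 and 4).

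The other 4 genes of the group were Hsp90b1, Dnajc3, Creld2 and Hyou1. Hsp90b1 encodes GRP94, the luminal HSP90, Dnajc3 a co-chaperone also known as an inhibitor of eIF2 alpha kinases, Creld2 a secreted ER stress protein, and Hyou1 a large HSP70-like nucleotide exchange factor for BiP. Their log2 fold changes were 0.01 for Hsp90b1, -0.12 for Dnajc3, -0.68 for Creld2 (-1.30 without HFD replicate 1 and -0.41 without HFD replicate 3) and 0.01 for Hyou1, with adjusted p-values from 0.521 to 0.996 in edgeR. Hyou1, at 56 to 289 counts per library, was at 0.69 without CD replicates 3 and 4 and at 0.63 without these and HFD replicate 1. The span of Hsp90b1 overlaps those of other genes, the largest with 7549 counts summed over the 8 libraries. Of the 9 luminal chaperones and partners, 7 were below 0, with a median of -0.50. The sum over the 9 genes was 1912 to 2130 CPM in the CD libraries and 1307 to 1685 CPM in the HFD libraries, so the sums did not overlap.

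The lectin chaperones calreticulin and calnexin, which bind glycoproteins while they fold, had fold changes of opposite sign, and the difference between them was not tested. Calr, which encodes the soluble calreticulin, was at 410.0, 372, 339.5 and 324 CPM in CD and at 168, 304, 194 and 213 CPM in HFD. All HFD libraries were below all CD libraries, HFD replicate 2 by the smallest margin. The means were 361 ± 38.0 and 219.9 ± 59.2 CPM and the log2 fold change was -0.72 ± 0.31 (adjusted p = 0.364 in edgeR). Canx, which encodes the membrane-bound calnexin, had means of 90.2 ± 19.7 CPM in CD and 114 ± 39.1 CPM in HFD, and its libraries overlapped (0.34 ± 0.31 on the log2 scale, with an adjusted p of 0.655 in edgeR, and 0.08 without HFD replicate 1).

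**Figure D2:**
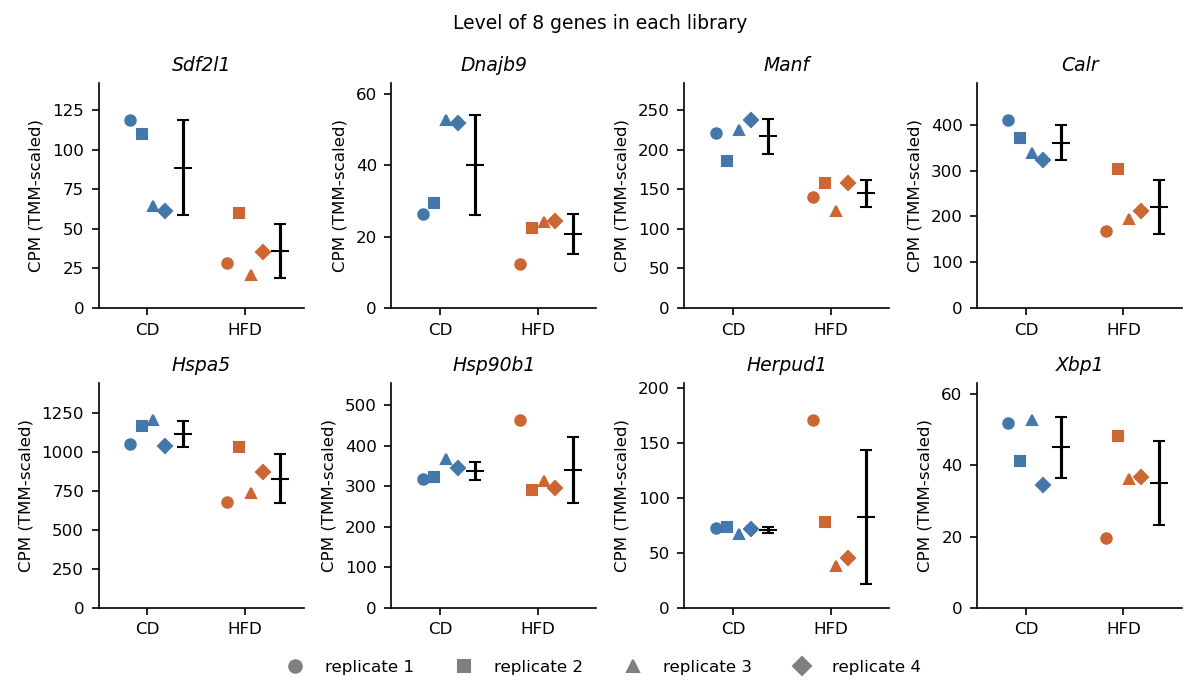
TMM-scaled CPM of 8 genes in each library, with CD in blue and HFD in orange, 1 point per library and its replicate number shown by the symbol. The black bar is the mean ± SD of 4 libraries. The diets do not overlap for Sdf2l1, Dnajb9, Manf, Calr and Hspa5, whereas HFD replicate 1 is the highest library for Hsp90b1 (462 CPM) and Herpud1 (170.3 CPM) and the lowest for Xbp1 (19.6 CPM).

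The 4 protein disulfide isomerases form and reshuffle disulfide bonds, Pdia3 mostly on glycoproteins held by the lectin chaperones. Their diets overlapped in every case. Pdia3 averaged 535 ± 46.2 CPM in CD and 350.3 ± 136 CPM in HFD, Pdia6 averaged 328 ± 60.3 and 242 ± 107 CPM, and their log2 fold changes were -0.61 (-0.40 without HFD replicate 1) and -0.44 (-0.20 without HFD replicate 3). Pdia4 (-0.14) and Pdia5 (0.31) differed less, and the adjusted p-values of the group in edgeR were 0.493 to 0.870.

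Of the 5 stress sensors and signalling genes, 4 were below 0 and 1 above, none passed the test, and the diets overlapped in each. Ern1, which encodes IRE1 alpha, the kinase and RNase that splices Xbp1, had 6.13, 7.70, 7.24 and 11.2 CPM in CD and 4.83, 5.67, 11.3 and 5.74 CPM in HFD. One library in each diet, CD replicate 4 and HFD replicate 3, was high and the rest lay between 4.83 and 7.70 CPM (log2 fold change -0.23 ± 0.33, adjusted p = 0.795 in edgeR). Without CD replicate 4 it was -0.02, and without HFD replicate 3 it was -0.54.

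Atf6, whose product is cleaved in the Golgi to release a transcription factor, had 10.3, 10.5, 13.8 and 16.6 CPM in CD and 11.0, 11.0, 21.2 and 16.5 CPM in HFD. In both diets replicates 1 and 2 were low and replicates 3 and 4 high, and the log2 fold change was 0.22 ± 0.29 (adjusted p = 0.769 in edgeR). Without CD replicates 3 and 4, all HFD libraries lay above the remaining CD libraries for Atf6, at a log2 fold change of 0.51, and without HFD replicate 3 it was 0.04.

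Eif2ak3, which encodes the eIF2 alpha kinase PERK, had 2.49, 3.04, 2.69 and 2.77 CPM in CD and 1.29, 2.23, 2.63 and 1.97 CPM in HFD. The diets met in HFD replicate 3, and the log2 fold change of -0.44 ± 0.32 had an adjusted p of 0.566 in edgeR and was -0.26 without HFD replicate 1. These are low levels, at 71 to 177 counts per library.

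Xbp1 encodes the transcription factor made active by IRE1 alpha splicing, and gene-level counts do not separate its spliced and unspliced forms. It had 51.7, 41.1, 52.5 and 34.6 CPM in CD and 19.6, 48.1, 35.98 and 36.7 CPM in HFD. HFD replicate 1 was low and the other 3 HFD libraries lay inside the CD range (log2 fold change -0.36 ± 0.30, adjusted p = 0.628 in edgeR). Without HFD replicate 1 the fold change was -0.15.

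Ppp1r15a encodes GADD34, the phosphatase subunit that removes phosphate from eIF2 alpha. Its level was 271, 298, 496 and 423 CPM in CD and 108, 384, 94.1 and 166 CPM in HFD. In HFD replicate 2 it was within the CD range and in the other 3 HFD libraries below it, with a log2 fold change of -0.98 ± 0.48 (adjusted p = 0.416 in edgeR). It was -1.56 without HFD replicate 2, -0.60 without CD replicates 3 and 4, and -0.41 without these and HFD replicate 1.

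The 7 genes of ER-associated degradation gave no common direction, with 4 below and 3 above 0 and a median of -0.04. Edem1, a lectin that takes misfolded glycoproteins out of the folding cycle, averaged 118 ± 12.8 CPM in CD and 86.7 ± 15.2 CPM in HFD (-0.44 ± 0.25 on the log2 scale, with an adjusted p of 0.472 in edgeR). Sel1l and Syvn1, which encode the adaptor and the ubiquitin ligase of the retrotranslocation complex, were at -0.04 and 0.01. Its derlins were at -0.16 for Derl1, 0.41 for Derl2 and -1.55 for Derl3. Derl3 rested on 0 to 22 counts per library and had 0 counts in HFD replicates 1 and 4, where a count of 0 allows up to 3, so its fitted value carries an SE of 1.31 and gives no bound. Herpud1, an ER membrane protein of the same complex, was at 0.22 ± 0.44. Without CD replicates 3 and 4 and HFD replicate 1, Derl2 was at -0.23, Herpud1 at -0.44 and Syvn1 at -0.09. Sel1l was then at 0.11. Syvn1 had 172 to 864 counts per library. Its span overlaps other genes, among them Mrpl49 on the opposite strand, the largest with 6353 counts summed over the 8 libraries. Reads of overlapping genes cannot be told apart where their spans overlap.

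Of the translocation and glycosylation genes, Sec61b, the beta subunit of the translocation channel, had 204, 178, 196 and 222 CPM in CD and 64.8, 187, 102 and 149 CPM in HFD. HFD replicate 2 lay inside the CD range and the other 3 below it (log2 fold change -0.67 ± 0.35, adjusted p = 0.444 in edgeR, and -0.44 without HFD replicate 1). Sec61a1, which encodes the channel's pore-forming subunit, was at -0.22, Ssr1, of the translocon-associated complex, at 0.29, and Ostc, a subunit of the oligosaccharyltransferase, at -0.26. Their adjusted p-values in edgeR were 0.673 to 0.713.

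**Figure D3:**
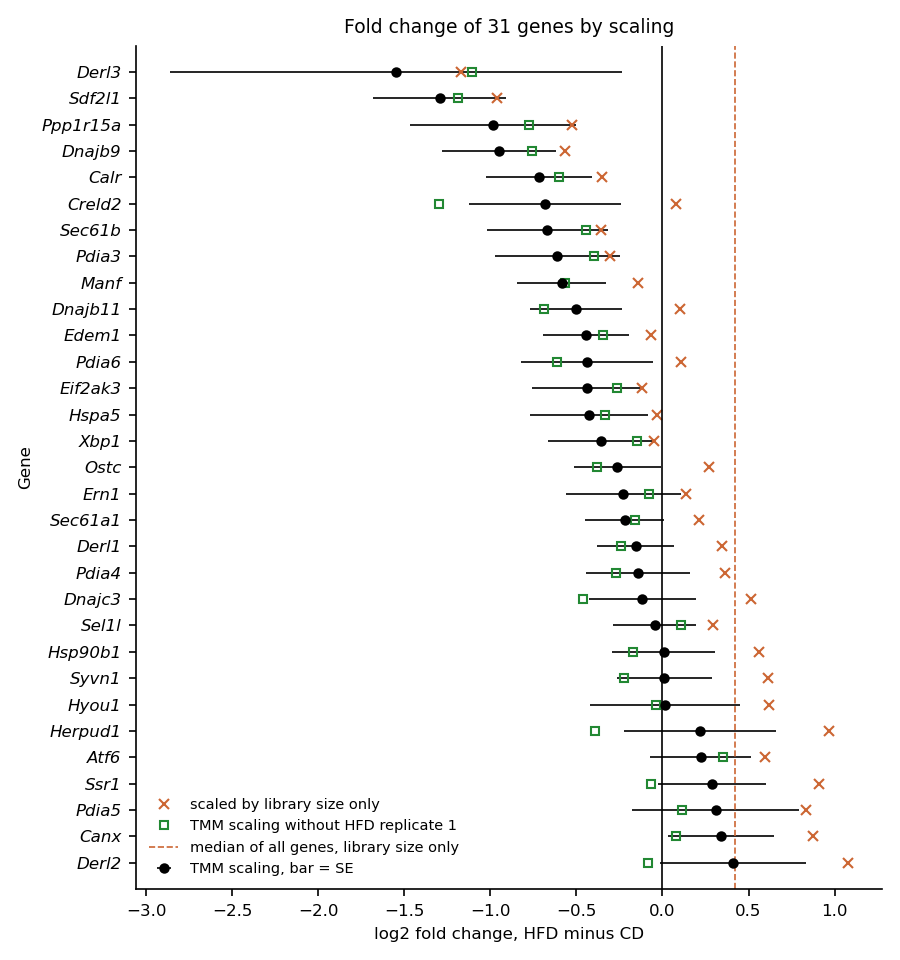
log2 fold change (HFD minus CD) of each of the 31 genes, ordered by the TMM-scaled value, which is the black point with its SE. Crosses give the fold change scaled by library size only and squares that under TMM without HFD replicate 1, and the dashed line is the median of all genes under library size scaling (0.42). Crosses lie to the right of the points for all 31 genes.

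The absolute direction of many of these genes depended on how the libraries were scaled. When scaled by library size only, the median over all genes tested moved from 0.01 to 0.42 and that of the 31 genes from -0.26 to 0.14, so that the difference between the 31 genes and all genes was -0.28, against -0.27 under TMM. Under library size the log2 fold changes were -0.96 for Sdf2l1, -0.57 for Dnajb9, -0.35 for Calr, -0.14 for Manf and -0.03 for Hspa5, and Dnajb9 alone had its diets apart. The fold changes of Pdia4, Pdia6, Dnajb11, Dnajc3, Creld2, Ern1, Sel1l, Derl1, Sec61a1 and Ostc changed from below to above 0. No gene of the 31 then had an unadjusted p under 0.05. The share of all counts held by the 31 genes was 0.473%, 0.496%, 0.328% and 0.314% in CD replicates 1 to 4 and 0.669%, 0.492%, 0.252% and 0.229% in HFD replicates 1 to 4, with overlapping diets. After TMM scaling their summed level was 4449, 4434, 4771 and 4250 CPM in CD and 3321, 4075, 2694 and 3185 CPM in HFD, with every HFD library below every CD library.

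A ratio to Hspa5 within a library is free of scaling. It also cancels any difference that a gene shares with Hspa5, whose own diets did not overlap after TMM scaling. The share of all genes with diets apart on this ratio was not computed. Of the other 30 genes, none was lower in all HFD libraries per 1000 counts of Hspa5, and Sel1l alone was higher, at 21.5 to 25.9 in CD and 25.9 to 39.8 in HFD, so the diets only just failed to touch. Sdf2l1 stood at 113, 94.6, 53.5 and 59.0 per 1000 counts of Hspa5 in CD and at 41.6, 58.4, 28.3 and 40.5 in HFD. HFD replicate 2 reached into the CD range on this measure. Hspa5 made up 23.5% to 26.3% of the 31 genes' counts in CD and 20.5% to 27.2% in HFD.

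HFD replicate 1 lay at both ends of the range for many of these genes. It was the highest of the 8 libraries for 9 genes (Canx, Creld2, Derl1, Derl2, Dnajc3, Herpud1, Hsp90b1, Ssr1 and Syvn1) and the lowest for 11 (Calr, Derl3, Dnajb9, Edem1, Eif2ak3, Ern1, Hspa5, Pdia3, Sec61b, Sel1l and Xbp1). Other libraries were as often at one end: CD replicate 3 was the highest for 9 genes and the lowest for 0. HFD replicate 3 was the lowest for 12 and the highest for 2. Such counts over all genes were not computed. Herpud1 and Creld2 are given here in each library, chosen after their values were seen. Herpud1 had 72.5, 73.2, 66.9 and 71.9 CPM in CD and 170.3, 78.0, 37.9 and 45.4 CPM in HFD. Creld2 had 68.4, 65.3, 76.1 and 62.3 CPM in CD and 87.1, 39.5, 19.2 and 23.7 CPM in HFD. In both genes the CD libraries lay close together, HFD replicate 1 was above all of them, and HFD replicates 3 and 4 were below all of them.

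Leaving out HFD replicate 1 left 9 genes with all HFD libraries below all CD libraries (Calr, Creld2, Derl1, Dnajb11, Dnajb9, Dnajc3, Hsp90b1, Manf and Sdf2l1), against 6.91% of all genes, and 27 of 31 genes below 0. Hspa5 was no longer among them. Leaving out CD replicates 3 and 4 as well gave 14 genes lower (14.4% of all genes) and Atf6 and Sel1l higher (12.3% of all genes), since fewer libraries leave less room for overlap. With CD replicates 3 and 4 alone left out, 7 genes were lower (10.4%) and Atf6 higher (7.69%). Calr, Dnajb9 and Manf had their diets apart in all 8 fits that left out 1 library. Sdf2l1 overlapped without CD replicate 1, CD replicate 2, HFD replicate 3 or HFD replicate 4. Hspa5 overlapped without any 1 of these libraries or HFD replicate 1. Each fit estimated the scaling anew, and leaving out a library cannot itself make separate diets overlap. With all libraries, the highest HFD and lowest CD values were 1029 and 1036 CPM for Hspa5 and 60.1 and 61.2 CPM for Sdf2l1. None of these fits called any of the 31 genes at an adjusted p under 0.05 in edgeR.

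Per unit of transcript length, as the deposited FPKM (fragments scaled to transcript length and library size), Hspa5 was the most abundant of the 31 genes, with a mean of 200.9 FPKM over the 8 libraries. Pdia3 (119 FPKM), Sec61b (107 FPKM), Calr (87.8 FPKM) and Hsp90b1 (79.6 FPKM) followed. At the low end stood Ern1 (0.780 FPKM), Eif2ak3 (0.334 FPKM), Hyou1 (0.331 FPKM) and Derl3 (0.0974 FPKM). Hspa5 ran from 128 to 279 FPKM over the libraries and Pdia3, the next in order, from 75.5 to 164 FPKM, so that these neighbours overlapped. Atf6, at 1.3 FPKM, was the most abundant of the 3 sensors.

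Genes with and without an exact ERSE had close medians. The 9 genes with one had a median log2 fold change of -0.43, 6 of them below 0, and the 16 genes with a window but no exact ERSE had a median of -0.40, 12 of them below 0. Each set held 2 genes whose diets did not overlap, Calr and Hspa5 in the first and Sdf2l1 and Dnajb9 in the second. In these, all HFD libraries lay below all CD libraries, against 4.8% of all genes tested. Transcript length ran along with the fold change across the 31 genes (Spearman's rho 0.534 across genes, shorter genes being lower in HFD, against -0.029 over 7809 genes at 5 CPM or more in HFD). Genes share their libraries and are no independent replicates, and what this relation rests on was not tested.

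Other genes of the secretory pathway had a median above 0. In 8 further lists, 117 other genes were tested and none was called in edgeR, while DESeq2 called Mbtps1, Sil1 and Trib3 higher (3 genes, against 0.829% of all genes) and Eif2ak2 lower (1 gene, against 2.87%). Of the 117 genes, 76 (65.0%) were above 0, against 8818 of the 17367 genes tested, with a median log2 fold change of 0.15. The 7809 genes at 5 CPM or more in HFD, in 4 groups by GC content of the transcript, had medians of 0.13 to 0.25. That range holds 0.15. An unadjusted p under 0.05 was found for 8 genes higher in HFD (6.84%, against 5.31% of all genes tested) and for 1 lower (0.855%, against 7.56%). All HFD libraries lay above all CD libraries in 5 genes (4.27%, against 3.57%) and below in 1 (0.855%, against 4.8%). Without HFD replicate 1, 65 of the 117 genes were above 0, with a median of 0.07, and without CD replicates 3 and 4 as well, 61 were, with a median of 0.02.

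**Figure D4:**
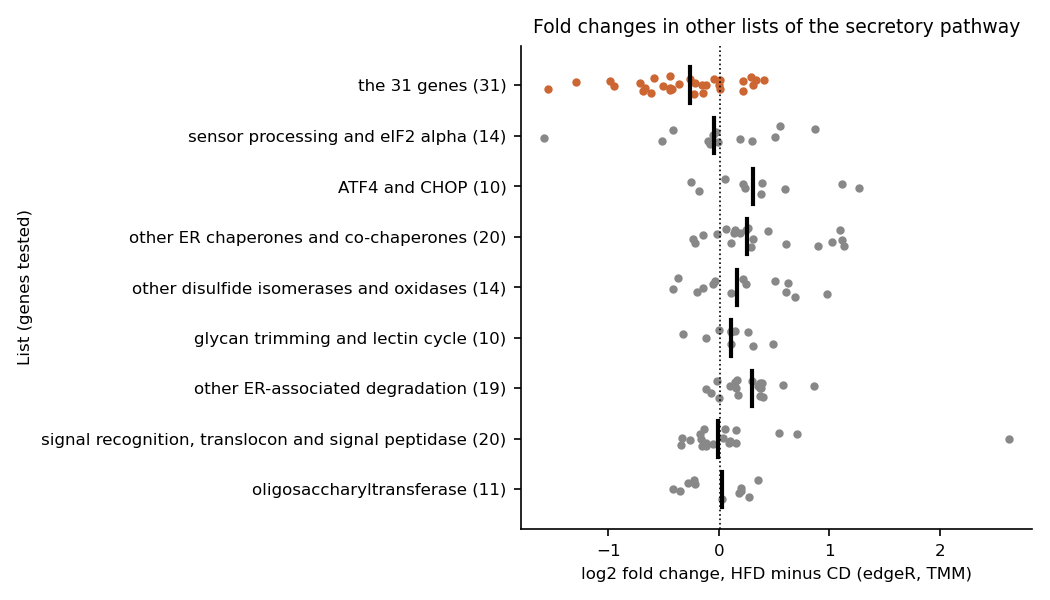
log2 fold change (HFD minus CD, edgeR with TMM) of the 31 genes in orange and of the genes of 8 other lists in grey, 1 point per gene tested, with the number tested in brackets and the median as a black bar. The medians are -0.26 for the 31 genes and 0.25, 0.30 and 0.31 for the other chaperones, the other degradation genes and the ATF4 and CHOP genes.

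Among 20 other ER chaperones and co-chaperones, 16 were above 0. Sil1, a nucleotide exchange factor for BiP, had 14.5, 10.8, 6.34 and 5.68 CPM in CD and 25.0, 20.2, 16.4 and 20.4 CPM in HFD. Its diets did not overlap (log2 fold change 1.14 ± 0.33, adjusted p = 0.264 in edgeR). Fkbp7 (1.02) and Cnpy2 (0.89) followed by p. Without CD replicates 3 and 4 and HFD replicate 1, Sil1 was at 0.59, Fkbp7 at 0.49 and Cnpy2 at 0.12. Of 19 other degradation genes, 16 were above 0, led by Erlec1, an ER lectin that recognises trimmed glycans, at 0.86 ± 0.32 (adjusted p = 0.318 in edgeR), and at 0.86 without the same 3 libraries.

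Of 10 ATF4 and CHOP genes, which belong to the PERK branch, 8 were above 0. Trib3, a pseudokinase induced by that branch, had 6.16, 6.08, 5.58 and 3.93 CPM in CD and 11.97, 15.2, 10.8 and 9.09 CPM in HFD. All HFD libraries lay above all CD libraries (log2 fold change 1.11 ± 0.26, adjusted p = 0.244 in edgeR). Without CD replicates 3 and 4 and HFD replicate 1 it was at 0.94. Ddit4 (1.27) and Chac1 (0.60) overlapped between the diets, and were at 2.01 and 0.83 without the same 3 libraries.

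The sensor-processing and eIF2 alpha list held genes on both sides of 0, 5 above and 9 below. Mbtps1, the Golgi protease that cleaves ATF6, was at 5.88 ± 1.53 CPM in CD and 10.8 ± 1.27 CPM in HFD without overlap (0.87 ± 0.26, adjusted p = 0.264 in edgeR), and its fold change was 0.55 without CD replicates 3 and 4 and HFD replicate 1. Eif2ak2, which encodes the double-stranded RNA-activated eIF2 alpha kinase PKR, was at 10.8, 11.7, 35.5 and 37.6 CPM in CD and 6.03, 7.66, 8.47 and 9.84 CPM in HFD. Its 2 high values were in the CD libraries with the neutrophil markers (log2 fold change -1.58 ± 0.44, adjusted p = 0.259 in edgeR), and without those 2 libraries the fold change was -0.51. Eif2ak4, another eIF2 alpha kinase, was at 0.51.

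The other lists had medians near 0 or slightly above. Of 14 other disulfide isomerases and oxidases 8 were above 0, with Prdx4 (0.98), Txndc12 (0.63) and Tmx1 (0.51) of the smallest p. Without CD replicates 3 and 4 and HFD replicate 1 these were at 0.26, 0.10 and 0.18. Of 10 genes of glycan trimming and the lectin cycle 8 were above 0 (Ganab 0.49, Uggt1 -0.32, Lman1 0.31), and of 11 oligosaccharyltransferase genes 6 (Magt1 -0.35, Rpn2 0.36, Rpn1 -0.41). In the list of signal recognition, translocon and signal peptidase, 10 of 20 were above 0. There Tram2, a translocon-associated protein, was at 74.5 CPM in HFD replicate 1 and at 5.65 to 6.72 CPM in the other HFD libraries, against 2.15 to 4.82 CPM in CD. Its log2 fold change was 2.63 with that library and 0.70 without it. Sec62 (0.55) and Srp68 (0.70) were next by p in that list, and Srp68 was at -0.04 without CD replicates 3 and 4 and HFD replicate 1.

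Markers of other cells differed between the libraries, and fewer cells of a type cannot be told apart in these bulk samples from less RNA per cell. The 15 neutrophil markers, with sums of 1560 to 109709 CPM in CD and 460 to 7402 CPM in HFD, had 12 of 15 genes below 0 in HFD, none of them at 0 in all libraries. The 7 classical monocyte markers had 7 of 7 below 0, with sums of 1536 to 24374 CPM in CD, highest in CD replicates 3 and 4, and 907 to 4816 CPM in HFD. Plasma cells, which are rich in these chaperones, had 11 markers that summed to 121 to 158 CPM in CD and 61.2 to 167 CPM in HFD, with 5 of the 8 tested below 0. Of these markers Igkc had 7.52 to 56.5 CPM, Ighm 4.58 to 58.4 CPM, Sdc1 6.90 to 27.5 CPM and Jchain 0.759 to 7.87 CPM over the 8 libraries, while Mzb1 and Tnfrsf17 had 0 to 0.532 CPM. The 10 T and NK cell markers summed to 18.3 to 25.1 CPM in CD and 4.79 to 16.6 CPM in HFD, and the 7 B cell markers to 8.73 to 15.7 CPM in CD and 16.3 to 30.3 CPM in HFD, neither with overlap. The 8 fibroblast markers summed to 298, 284, 53.7 and 48.8 CPM in CD and to 701, 699, 212 and 147 CPM in HFD. The 15 hepatocyte markers summed to 83.6 to 132 CPM in CD and to 36.7 to 71.8 CPM in HFD, without overlap. The 13 immediate early genes, which respond to handling of cells, summed to 7113 to 14425 CPM in CD and 5733 to 19149.6 CPM in HFD. The part of these other cells in the levels of the 31 genes was not tested.

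**Figure D5:**
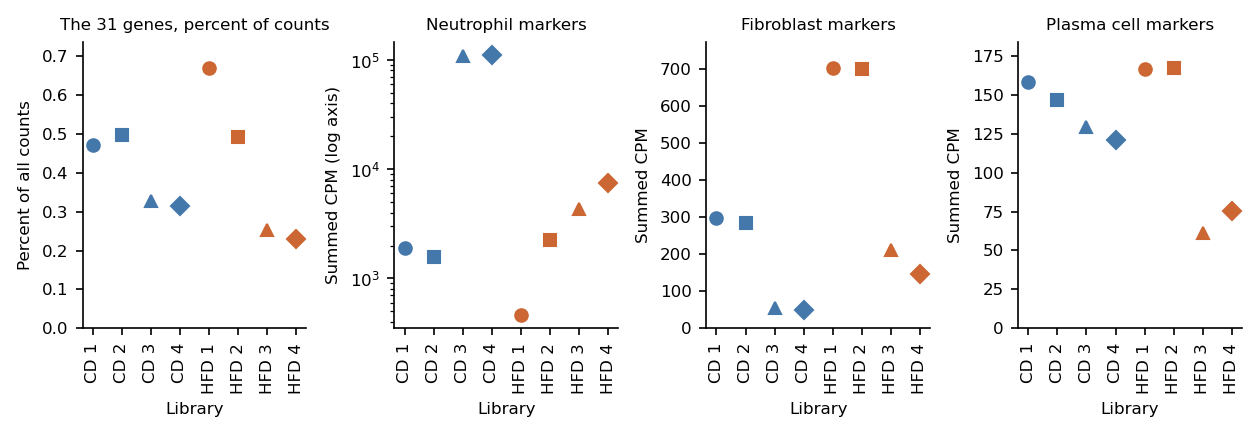
Share of all counts held by the 31 genes (percent) and summed CPM of the neutrophil (log axis), fibroblast and plasma cell markers, 1 point per library, with CD in blue and HFD in orange. HFD replicate 1 has the highest share of the 31 genes (0.669%) and the lowest neutrophil sum (460 CPM), and CD replicates 3 and 4 have neutrophil sums of 108026 and 109709 CPM.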

How the data were processed

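PolyA RNA of sorted cells was sequenced in 4 CD and 4 HFD libraries. The authors deposited 1 table with whole-number counts and FPKM per gene, per the file headers. Cutadapt 1.9, HISAT2 2.0.4 and StringTie 1.3.4d are named in the submitters' processing notes, and the genome build is not given in the sources used here. Start, end and strand of 27 of the 31 genes are those of GENCODE M21. The protocol amplifies cDNA with an oligo(dT) primer and marks neither strand nor molecules. The upper limit given where Derl3 had no counts therefore covers counting error only. SDs, and SEs of fold changes, include the spread between libraries.

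Diet was the single term of a two-sided glmQLFTest in edgeR 4.0.16 (R 4.3.3), after filterByExpr and TMM, and p-values were adjusted by Benjamini-Hochberg over the 17367 genes tested, with a threshold of 0.05. CPM are scaled by TMM and fold changes are HFD minus CD. Alternatives were other scalings, DESeq2 1.42.0, no filter beyond 1 count, limma 3.58.1 on log2(FPKM + 1) and log2(FPKM + 0.1) of genes at 0.5 FPKM or more, a replicate block, and libraries left out. The edgeR script was tested on simulated data. The alternatives that added a term for replicates 1 and 2 against 3 and 4, or left out CD replicates 3 and 4 together with HFD replicate 1, were chosen after the data were seen.

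Replicates of a diet were compared by a chi-square on each gene's counts, and the smallest median over genes was 3.5 against 0.455 from sampling alone, so no library was counted as a repeat of another. Libraries of the same number in both diets deviated from their diet means together (correlations of 0.11, 0.292, 0.22 and 0.183), as did others among replicates 1 and 2 or among 3 and 4 (0.16 to 0.318). Between replicates 1 or 2 of one diet and 3 or 4 of the other, the correlations were -0.315 to -0.131. Libraries of the same number were no closer than the others on their side of this split, so the check showed the split and not pairs by number. The split comes from this check on the data and not from the labels.

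The 31 genes, the other lists and the markers were chosen with earlier results of these data known. Per-library values are given for Hspa5, Xbp1, Ern1, Atf6 and Eif2ak3, for genes whose diets do not overlap and, up to 12 genes in all, for those of smallest p. In each other list up to 3 genes of smallest p are named.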

Additional observations from a re-analysis of the deposited data

Results flagged for a closer look

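Each of the 31 genes, and their share of all counts, was looked at within each diet for a library far from its 3 fellows, by a gap to the nearest library that was large for the group's range (Dixon's criterion). Of the 64 groups of 4 libraries examined, 62 for single genes and 2 for the share, 10 had such a library, all for single genes and all in HFD. Chance gives about 1 in 20 for a single group. The genes share their libraries, so the groups are not independent and this rate cannot be set against the 10. The share of all genes with such a library was not computed. HFD replicate 1 was high for Canx at 173 CPM against 89.4 to 98.7 in the other 3 HFD libraries, Derl2 at 71.0 CPM against 26.0 to 27.2, Ssr1 at 111 CPM against 48.9 to 56.8, and Dnajc3 at 97.9 CPM against 41.2 to 50.5. It was also high for Syvn1 at 9.11 CPM against 5.10 to 5.43 and Hsp90b1 at 462 CPM against 289.9 to 312. The same library was low for Dnajb9 at 12.3 CPM against 22.3 to 24.3 and Sel1l at 17.6 CPM against 27.5 to 29.2. HFD replicate 2 was high for Sec61a1 at 65.4 CPM against 46.2 to 47.4, and HFD replicate 3 was high for Ern1 at 11.3 CPM against 4.83 to 5.74. What these distances rest on was not tested.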

How the results depend on the processing

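Under every alternative run, edgeR and limma called none of the 31 genes, whereas DESeq2 called 1, Sdf2l1 (adjusted p = 0.0324, against 0.0552 to 0.737 in its other fits). The median of the 31 genes stayed below that of all genes, by a difference of -0.38 to -0.15, in all settings except without a filter, where it was 0.86 above an all-gene median of -1.01. The number of genes called over all genes, 1 in the report, was 639 in DESeq2, 415 without a filter, 356 with a term for replicates 1 and 2 against 3 and 4, and 0 scaled by library size, in limma on log2(FPKM + 1), with the replicate block, without CD replicates 3 and 4, and without these and HFD replicate 1. The replicate block changed no other call, and 4 of the 31 genes had an unadjusted p under 0.05 with it.

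Against 4 genes with an unadjusted p under 0.05 in the report, there were 9 in DESeq2, 2 without a filter, 2 without CD replicates 3 and 4, and 0 by library size and in limma with either pseudocount. All were lower in HFD, and the share of all genes so found was 7.56% in the report, 10.7%, 12.3% and 2.58% in the first 3 and 2.27% to 3.56% in the others. The median of the 31 genes was 0.14 by library size, 0.056 in limma on log2(FPKM + 1) and 0.065 on log2(FPKM + 0.1), on 28 genes. Genes with diets apart numbered 1 by library size, 8 without CD replicates 3 and 4, and 16 without these and HFD replicate 1, while the shares of all genes lower and higher were 2.57% and 3.05%, 10.4% and 7.69%, and 14.4% and 12.3%. Over leaving out each library in turn, genes called ran from 0 to 1, genes with an unadjusted p under 0.05 from 1 to 5, and genes with diets apart from 3 to 9.

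Some fold changes changed sign, none of them called. With DESeq2's size factors in edgeR, and in DESeq2, they were -0.0328 and -0.0327 for Hsp90b1, -0.0421 and -0.041 for Hyou1, and -0.0306 and -0.0276 for Syvn1. By library size they were 0.37 for Pdia4, 0.11 for Pdia6, 0.10 for Dnajb11, 0.51 for Dnajc3, 0.078 for Creld2, 0.14 for Ern1, 0.29 for Sel1l, 0.35 for Derl1, 0.21 for Sec61a1 and 0.27 for Ostc. In limma with the larger and the smaller pseudocount they were 0.17 and 0.17 for Pdia4, 0.16 and 0.15 for Dnajc3, 0.049 and 0.073 for Ern1, 0.21 and 0.28 for Sel1l, 0.18 and 0.18 for Derl1, 0.11 and 0.12 for Sec61a1, and 0.063 and 0.058 for Ostc. Sel1l was at 0.061 without a filter. With the replicate block they were -0.021 for Hsp90b1, -0.053 for Herpud1 and -0.022 for Syvn1. Pdia5 was at -0.11 without CD replicates 3 and 4. Over leaving out each library in turn, or CD replicates 3 and 4 together with HFD replicate 1, values ran from -0.19 to 0.63 for Hyou1, -0.090 to 0.11 for Sel1l, -0.47 to 0.056 for Pdia4, -0.22 to 0.13 for Syvn1, -0.17 to 0.11 for Hsp90b1, -0.44 to 0.49 for Herpud1, -0.23 to 0.58 for Derl2, -0.077 to 0.44 for Ssr1, -0.32 to 0.58 for Pdia5, -0.46 to 0.051 for Dnajc3, -0.18 to 0.47 for Canx and -0.54 to 0.13 for Ern1. Apart from the libraries or genes each setting left out, the cause was not tested. At 0 to 22 counts per library, Derl3 was too shallow to show a difference.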
